A study of Mus musculus with 6 samples.

Results

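The replication-dependent histone genes are mostly clustered genes that encode the linker histone H1 and the core histones H2A, H2B, H3 and H4. They were taken here as every row of the expression table whose symbol begins with Hist1h, Hist2h, Hist3h or Hist4h, which gave 68 of 23235 gene symbols. Of these 68 members, 54 belong to the Hist1 cluster on chromosome 13, 10 to the Hist2 cluster on chromosome 3, 3 to the Hist3 cluster on chromosome 11 and 1 to Hist4 on chromosome 6. By the histone type in the symbol, 6 are H1 genes, 18 are H2A, 19 are H2B, 12 are H3 and 13 are H4. These counts include 2 annotated pseudogenes, Hist3h2bb-ps (H2B) and Hist2h3c2 (H3).

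The transcript levels came from growing oocytes of mice labelled C57BL/6 (C57BL/6J in the study's methods), the oocytes that enlarge in the ovary while they store maternal mRNA. WT oocytes were compared with Pabpn1-null oocytes. The latter came from Pabpn1fl/fl;Gdf9-Cre females, whose floxed Pabpn1 gene is deleted by a Cre recombinase expressed from the oocyte promoter of Gdf9, starting in primordial follicles. PABPN1 is the nuclear poly(A)-binding protein. Each genotype had 3 samples of 10 pooled oocytes, whose cDNA was primed with oligo-dT. The age of the mice at oocyte collection is not given in the labels, and neither the labels nor the study's methods say whether the samples of a genotype came from separate mice, so each p-value reflects sample-to-sample spread, which may be technical. Pabpn1 itself was at 21.9, 33.4 and 21.8 FPKM (fragments counted per transcript length and per mapped reads of the sample) in the WT samples and at 0.595, 0.878 and 1.37 FPKM in the Pabpn1-null samples, as the labels state.

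Replication-dependent histone mRNAs differ from other animal mRNAs at their 3′ end. Their pre-mRNA is cut a few bases after a conserved stem-loop by machinery that contains the U7 snRNP and the stem-loop binding protein SLBP, and the mature mRNA ends there without a poly(A) tail. Some of these genes also give polyadenylated transcripts, which end at a poly(A) signal (AATAAA or ATTAAA) downstream. An oligo-dT primer starts from a poly(A) tail, so the levels below describe the polyadenylated histone transcripts, and the mRNAs that end at the stem-loop are not expected to be counted in full.

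The stem-loop is shown for 6 of the members with a called difference between the genotypes, the 3 with the lower level in Pabpn1-null oocytes first. The sequences were read from the mouse genome build mm9 on the strand of the gene, 5′ to 3′, and the capitals mark the stem-loop, which is 16 bases long.
Hist1h2bc: ccaaaGGCTCTTTTCAGAGCCacccacttt
Hist2h3c1: acaaaGGCTCTTTTCAGAGCCaccacagct
Hist3h2a: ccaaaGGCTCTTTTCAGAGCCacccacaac
Hist3h2ba: ccaaaGGCTCTTTTCAGAGCCaccttccaa
Hist1h4h: ccaaaGGCCCTTTTCAGGGCCgcccacatt
Hist4h4: acaaaGGCCCTTTTCAGGGCCcacaaagca
The parts in capitals lie at chr13:23776516-23776531 (Hist1h2bc, plus strand), chr3:96051250-96051265 (Hist2h3c1, plus strand), chr11:58768674-58768689 (Hist3h2a, plus strand), chr11:58762851-58762866 (Hist3h2ba, plus strand), chr13:23623327-23623342 (Hist1h4h, plus strand) and chr6:136752519-136752534 (Hist4h4, minus strand). The H2A, H2B and H3 members shown share the same 16 bases, and the H4 members have another stem.

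The stem-loop was searched as GGNNNTTNNNANNNCC with complementary stem bases, on the strand of the gene, in the 200 bases of genomic sequence after the stop codon. All 68 members matched a gene of the mm9 annotation GENCODE vM1, and 66 of them had a coding transcript. The stem-loop was found in 63 of these 66 (95.5%), against 13 of 21864 other coding genes (0.0595%), among them H2afx, which encodes the variant histone H2A.X. It began 22 to 59 bases after the stop codon, with a median of 31. The 3 coding members without a match were Hist1h2an, Hist2h2bb and Hist2h2be, and the annotated stop codon of Hist2h2bb lies in the second of 2 exons. The form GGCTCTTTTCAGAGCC was found in 39 members, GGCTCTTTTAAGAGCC in 9 and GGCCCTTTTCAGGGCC in 8, all 8 of which encode H4. All 13 H4 members had a stem that began with GGCCC or GGTCC, and the stems of the other 4 types began with GGCTC. The 3′ end of the annotated transcript carried AATAAA or ATTAAA in its last 50 bases in 17 of the 66 members (25.8%), against 72.8% of the other coding genes.

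Of the members named below, 5 with a called difference in level had such a poly(A) signal near the annotated end, and these signals are shown in capitals within the mm9 sequence around them.
Hist1h2bc: tgatgtatatatAATAAAtgtcatgtaaag
Hist2h3c1: ttttttaatcccAATAAAaatttaacacac
Hist3h2a: tgtgtctacaaaATTAAAggaagttccaat
Hist3h2ba: cataatggtattAATAAAtttggttcaatt
Hist1h4h: ccacattttcttATTAAAagagcgaacatg
The capitals lie at chr13:23784331-23784336, chr3:96052410-96052415, chr11:58770158-58770163, chr11:58763009-58763014 and chr13:23623357-23623362, in the same order and all on the plus strand. In Hist1h2bc the signal lay in the second of 2 exons, and the stem-loop lay in the intron between them, so the annotated transcript does not contain the stem-loop. In Hist1h4h it began 15 bases after the stem-loop. The annotated transcript of Hist4h4 ended at the stop codon, before its stem-loop.

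A minority of the histone genes was measured. In at least 1 of the 6 samples, 25 of the 68 members (36.8%) were above 1 FPKM, against 53.9% of all 23235 rows, and 13 were above 5 FPKM. Another 16 members were above 0 but not above 1 FPKM, and 27 were listed at 0 in all 6 samples. Per sample, 17 to 20 members were above 1 FPKM, and 14 members were above 1 FPKM in all 6. Hist1h1d, Hist1h3a and Hist1h3e were above 1 FPKM in WT samples only, and Hist1h2bj, Hist1h3g and Hist3h2bb-ps in Pabpn1-null samples only, so these 6 passed through 1 genotype alone.

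The types differed in how many of their genes were measured. Above 1 FPKM were 3 of 6 H1 genes, 3 of 18 H2A genes, 7 of 19 H2B genes, 5 of 12 H3 genes and 7 of 13 H4 genes. H2A had the lowest share, with 10 of its 18 genes listed at 0 in every sample. Several of these 10 had few or no stretches of sequence that occur once in the genome, as described below. By cluster, 18 of 54 Hist1 genes, 3 of 10 Hist2 genes, all 3 Hist3 members (the pseudogene Hist3h2bb-ps among them) and the single Hist4 gene were above 1 FPKM. These counts are a description and were not tested between types or clusters.

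**Figure D1:**
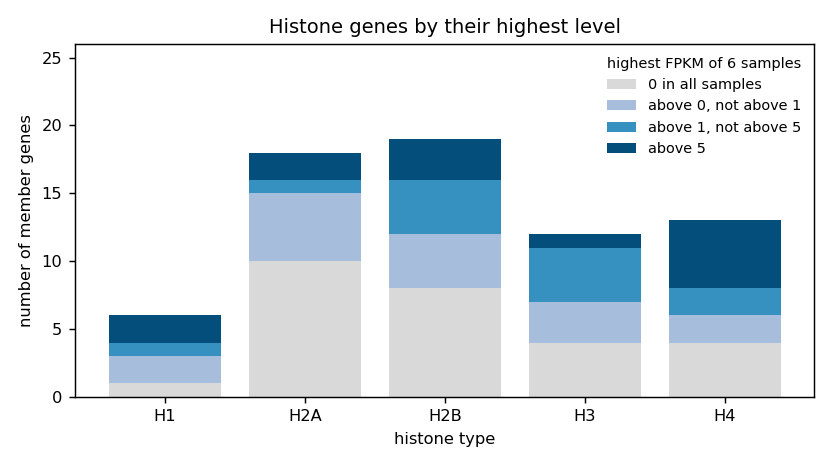
Number of histone genes (vertical axis) of each type (horizontal axis), coloured by the highest FPKM each gene reached in the 6 samples. H4 had 5 genes above 5 FPKM, H2B 3, H1 and H2A 2 each and H3 1, and 10 of the 18 H2A genes were listed at 0 in every sample.

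Copies of a histone gene can be nearly identical, and the authors kept only reads that mapped to 1 place in the genome. The share of 50-base stretches of each member's annotated exons that occur once in mm9 was therefore computed, 50 bases being the length to which the reads were trimmed. The reads were sequenced in pairs, but each stretch was taken alone and within an exon, without the mate of a read. In 6 members no stretch was unique, and in another 9 fewer than 25% were. The 6 were the H2A genes Hist1h2ao, Hist1h2ap, Hist2h2aa1 and Hist2h2aa2 and the H2B genes Hist1h2bq and Hist1h2br. None of the 15 members with fewer than 25% unique stretches was above 1 FPKM. Of the 36 members with 25 to 75% unique stretches, 15 were above 1 FPKM, as were 10 of the 17 members with 75% or more. The median share was 64.0% in the 25 members above 1 FPKM, 39.6% in the other 43, and 28.5% in the 27 listed at 0. A level of 0 in a member with few unique stretches is thus not a measure of its transcription, and the part of read mapping in the low levels was not tested.

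**Figure D2:**
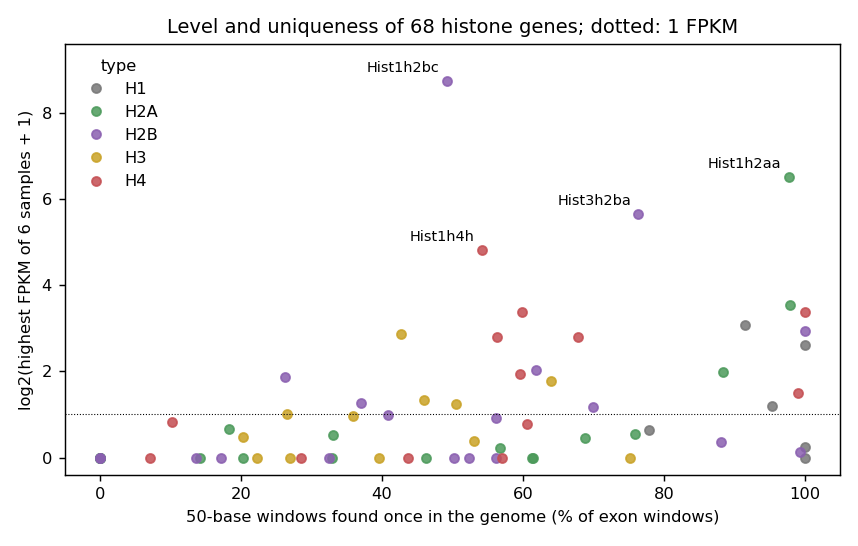
Highest level of each of the 68 histone genes over the 6 samples, as log2(FPKM + 1), against the share of 50-base windows of its exons found once in the genome, coloured by histone type. The dotted line marks 1 FPKM, and all 15 genes with under 25% unique windows lie below it.

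The 25 members above 1 FPKM were tested with limma on log2(FPKM + 1) together with all 12523 rows above 1 FPKM in at least 1 sample, with Benjamini-Hochberg adjustment over all of them. Transcripts of 6 members rose in Pabpn1-null oocytes (Hist1h4h, Hist4h4, Hist3h2ba, Hist1h4c, Hist2h2bb and Hist1h2ac), and those of 3 fell (Hist1h2bc, Hist2h3c1 and Hist3h2a). The other 16 did not pass the test. Of all rows tested, 27.9% rose and 20.2% fell, 48.1% in all, against 36.0% of the 25 members, so the share of members called was not above this background. The median log2 change was 0.52 over the 25 members and 0.09 over all rows tested, with 17 members at a positive and 8 at a negative change. The genotypes did not overlap for 7 members that were higher and 4 that were lower, where 33.3% and 24.7% of all rows did so, 58% in either direction. By type, H4 had 3 higher and 0 lower calls, H3 had 0 and 1, H2B had 2 and 1, H2A had 1 and 1, and H1 had none. In bulk samples a lower level in fewer oocytes and less RNA in each oocyte cannot be told apart.

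**Figure D3:**
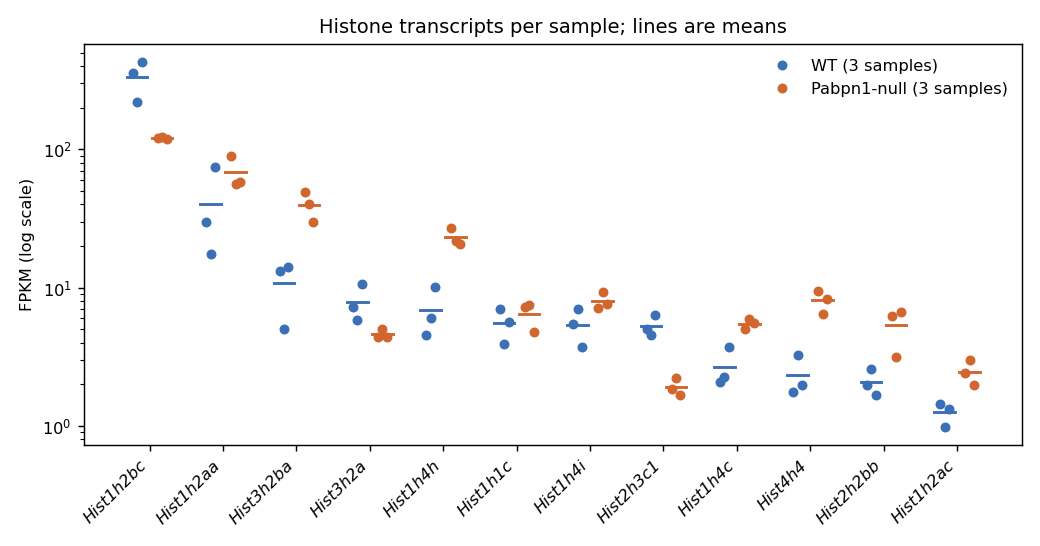
FPKM of 12 histone genes in each of the 3 WT and 3 Pabpn1-null samples, on a log axis, with short lines at the group means. Hist1h2bc stands at 220 to 428 FPKM in WT and at 118 to 124 FPKM in Pabpn1-null samples, and Hist3h2ba, Hist1h4h and Hist4h4 are higher in all 3 Pabpn1-null samples than in any WT sample.

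H2B, the partner of H2A in the nucleosome core, held most of the summed FPKM of the 68 members, through Hist1h2bc. Without Hist1h2bc, the H2B genes held 3.40 to 3.95% of that sum in WT samples and 14.1 to 17.8% in Pabpn1-null samples. Hist1h2bc, a canonical H2B gene (chr13:23776068-23784357, plus strand), was the highest member in every sample. Its level was 358, 220 and 428 FPKM in WT samples and 122, 124 and 118 FPKM in Pabpn1-null samples. The 3 Pabpn1-null values were close to each other and all below the lowest WT value. The mean fell to 36.1% of WT (335 ± 105 against 121 ± 2.81 FPKM, SD, n = 3 each), a log2 change of -1.41 (standard error 0.21, limma adjusted p = 6.62e-04). Hist1h2bc made up 73.7 to 79.1% of the summed FPKM of all members in WT samples and 34.0 to 41.1% in Pabpn1-null samples. Only 2.43% of the 50-base windows of its coding sequence were unique, and 264 of its 314 unique windows lay after the stem-loop. Few positions in its coding sequence could thus give a uniquely mapped read without the help of its mate.

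Hist3h2ba, the H2B gene of the Hist3 cluster (chr11:58762413-58763032, plus strand), moved the other way. It was at 13.2, 5.001 and 14.1 FPKM in WT samples and at 49.0, 40.2 and 29.9 FPKM in Pabpn1-null samples. Every Pabpn1-null value was more than double the highest WT value. The mean rose 3.70-fold, a log2 change of 1.88 (standard error 0.33, limma adjusted p = 0.00151).

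Hist2h2bb, an H2B gene of the Hist2 cluster without a stem-loop match, was at 1.97, 2.59 and 1.67 FPKM in WT samples and at 6.27, 3.12 and 6.63 FPKM in Pabpn1-null samples. The groups did not overlap, and Pabpn1-null replicate 2 lay close to the highest WT sample. The log2 change was 1.00 (standard error 0.26, limma adjusted p = 0.0108). The other 4 tested H2B members, the pseudogene Hist3h2bb-ps included, did not pass the test. Among them was Hist1h2ba, which encodes the testis and oocyte form TH2B and is named here after its values were seen, at 0.633, 1.85 and 2.30 FPKM in WT and 3.06, 0.911 and 2.90 FPKM in Pabpn1-null samples. Its groups overlapped (log2 change 0.33, limma adjusted p = 0.450, and -0.05 after the scaling described below).

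Among the H2A genes, Hist1h2aa, which encodes TH2A, the partner of TH2B in testis and oocytes, had the second highest level of all members. The pair Hist1h2ba and Hist1h2aa lies head to head on chromosome 13 with 305 bases between the genes. Hist1h2aa was at 30.0, 17.4 and 74.2 FPKM in WT samples and at 89.7, 56.4 and 58.5 FPKM in Pabpn1-null samples. WT replicate 3 lay within the Pabpn1-null range, and the other WT samples were below it. The log2 change of 0.95 (standard error 0.42) did not pass the test (limma adjusted p = 0.0855). It passed without WT replicate 3 (adjusted p = 0.00157) and with all samples set to the same total FPKM (0.0461), so the call depends on these choices. This gene is well separated by reads, with 97.7% of its windows unique.

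Hist3h2a, the H2A gene of the Hist3 cluster (chr11:58768187-58770176, plus strand), was at 7.28, 5.87 and 10.6 FPKM in WT samples and at 4.41, 5.01 and 4.39 FPKM in Pabpn1-null samples. All Pabpn1-null values were below all WT values, with a narrow gap between the nearest samples. The mean fell to 58.3% of WT, a log2 change of -0.64 (standard error 0.22, limma adjusted p = 0.0366). The call did not hold when any single sample but WT replicate 2 was left out (adjusted p 0.0633 to 0.108), at the same total FPKM per sample (0.107) or with no filter on low values (0.116). The annotation places Hist3h2a within the bounds of Trim17 on the same strand, but Trim17 reached no more than 0.232 FPKM in any sample. Hist3h2a and Hist3h2ba lie 5154 bases apart on the same strand, and Hist3h2a fell where Hist3h2ba rose.

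Hist1h2ac, an H2A gene of the Hist1 cluster, was at 1.44, 0.982 and 1.33 FPKM in WT samples and at 2.41, 2.98 and 1.98 FPKM in Pabpn1-null samples. The groups did not overlap (log2 change 0.61, standard error 0.20, limma adjusted p = 0.0266), although the call was lost without WT replicate 2 (adjusted p = 0.0748), Pabpn1-null replicate 1 (0.0773) or Pabpn1-null replicate 2 (0.0864). Hist1h2ac and Hist1h2bc are a head-to-head pair with 250 bases between them. Hist1h2bc was far higher in every sample, and the pair changed in opposite directions.

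H3 carries the N-terminal tail that holds many histone modifications. Hist2h3c1, an H3 gene of the Hist2 cluster (chr3:96049477-96052431, plus strand), was the highest H3 member in WT samples. It was at 4.99, 4.57 and 6.30 FPKM in WT samples and at 1.85, 2.23 and 1.67 FPKM in Pabpn1-null samples. Every WT value was more than double every Pabpn1-null value. The mean fell to 36.2% of WT, a log2 change of -1.10 (standard error 0.19, limma adjusted p = 0.00146). No window of its coding sequence was unique, and 1117 of its 1242 unique windows lay after the stem-loop. It overlaps Hist2h2aa1 on the same strand. No window of Hist2h2aa1 was unique, so its level of 0 FPKM cannot show whether that gene was transcribed.

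The other 4 tested H3 genes did not pass the test. Nearest to it was Hist1h3g, named here after its values were seen, at 0.396, 0 and 0 FPKM in WT samples and 0.820, 0.285 and 1.51 FPKM in Pabpn1-null samples (log2 change 0.69, limma adjusted p = 0.0502). It was above 1 FPKM in a single Pabpn1-null sample, so its groups overlapped and its place in the test rests on that sample. It passed without WT replicate 1 (adjusted p = 0.0419) or Pabpn1-null replicate 2 (0.0182).

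H4, the partner of H3, had 3 calls among 7 tested genes, all of them higher in Pabpn1-null oocytes. Hist1h4h (chr13:23622919-23623388, plus strand) was at 4.58, 6.07 and 10.1 FPKM in WT samples and at 27.0, 21.9 and 20.7 FPKM in Pabpn1-null samples. The lowest Pabpn1-null sample was at more than double the level of the highest WT sample. The mean rose 3.36-fold, a log2 change of 1.66 (standard error 0.25, limma adjusted p = 6.49e-04). Unlike in Hist1h2bc and Hist2h3c1, none of its unique windows lay after the stem-loop. Its annotated transcript ends 46 bases past the stem-loop, too few for a 50-base window.

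Hist4h4, the lone gene of the Hist4 locus (chr6:136752589-136752900, minus strand), was at 1.75, 3.24 and 1.96 FPKM in WT samples and at 9.48, 6.47 and 8.30 FPKM in Pabpn1-null samples. The groups were well apart. The mean rose 3.49-fold, a log2 change of 1.47 (standard error 0.23, limma adjusted p = 7.81e-04), and 100% of its windows were unique. H2afj, a variant H2A gene 3868 bases from it, also rose, from 10.6 ± 2.68 to 20.9 ± 0.593 FPKM (SD, n = 3 each), with a log2 change of 0.94 (limma adjusted p = 0.00296).

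Hist1h4c was at 2.06, 2.25 and 3.74 FPKM in WT samples and at 4.98, 5.93 and 5.504 FPKM in Pabpn1-null samples. Its groups did not overlap, and its log2 change of 0.84 passed the test (standard error 0.22, limma adjusted p = 0.0101). Hist1h4i was at 5.48, 6.998 and 3.73 FPKM in WT samples and at 7.10, 9.37 and 7.58 FPKM in Pabpn1-null samples. Here too every Pabpn1-null sample was above every WT sample, by a narrow gap, and the log2 change of 0.52 did not pass the test (standard error 0.23, limma adjusted p = 0.0842). Without WT replicate 2 it passed (adjusted p = 0.0322).

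H1, which binds the linker DNA between nucleosomes, showed no called change. Its highest member, Hist1h1c, was at 6.97, 3.93 and 5.65 FPKM in WT samples and at 7.26, 7.44 and 4.75 FPKM in Pabpn1-null samples. The groups overlapped (log2 change 0.21, standard error 0.24, limma adjusted p = 0.497, and -0.27 after the scaling described below). Hist1h1d, named here after its values were seen, was at 1.23, 1.29 and 0.946 FPKM in WT and 0.739, 0.710 and 0.565 FPKM in Pabpn1-null samples, without overlap (log2 change -0.37, limma adjusted p = 0.110).

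**Figure D4:**
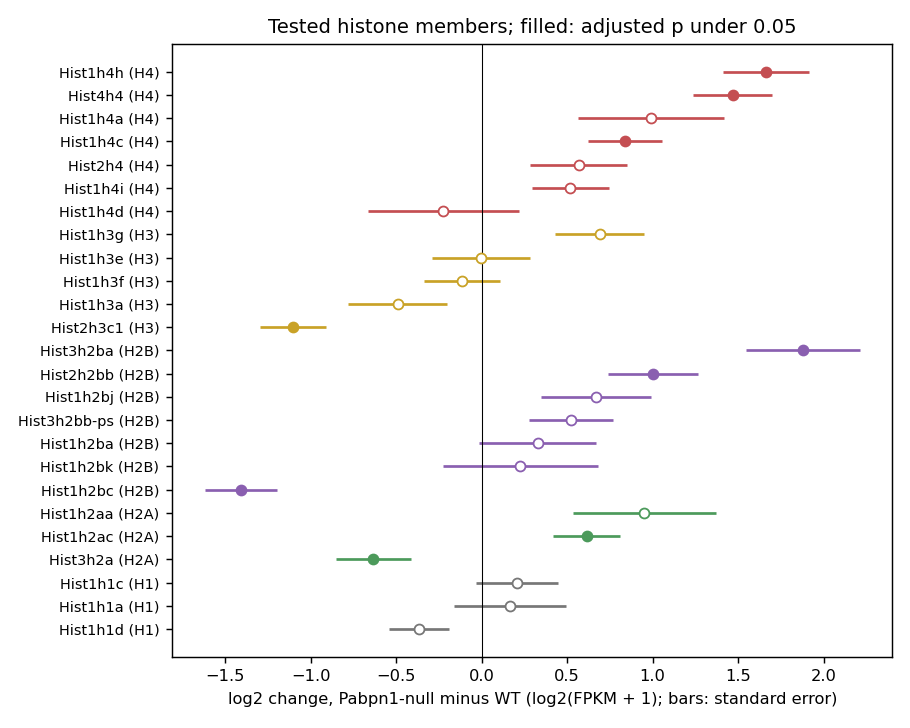
Log2 change of the 25 tested histone genes (Pabpn1-null minus WT, on log2(FPKM + 1)) with its standard error from limma, grouped and coloured by histone type. Filled points passed the test, 6 to the right and 3 to the left of 0, from -1.41 for Hist1h2bc to 1.88 for Hist3h2ba.

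Because Hist1h2bc was so much higher than the rest, the summed level of the members followed it. The 68 members summed to 452, 296 and 580 FPKM in WT samples and to 358, 301 and 291 FPKM in Pabpn1-null samples, which overlap. The mean of the sum was 71.6% of WT, and without Hist1h2bc it was 182% of WT, with 94.6, 75.8 and 152 FPKM in WT and 236, 178 and 173 FPKM in Pabpn1-null samples. The direction of the sum thus depended on 1 gene. The H4 members summed to 18.8, 25.7 and 23.3 FPKM in WT and to 56.1, 47.0 and 51.7 FPKM in Pabpn1-null samples, 228% of WT without overlap. The H3 members summed to 65.7% of WT, also without overlap, but the nearest samples were at 6.99 (WT) and 6.82 FPKM (Pabpn1-null). The mean H3 sum went from 9.13 to 6.00 FPKM, and that of Hist2h3c1 from 5.29 to 1.91 FPKM. The lower H3 sum thus rested on this 1 gene. The H1 sums (111% of WT) and H2A sums (152% of WT) overlapped between the genotypes. In all, the members held 0.0438 to 0.0804% of the summed FPKM of a sample.

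The 3 members that fell had structural features in common that the choice of members did not use. All 3 carried a poly(A) signal in the last 50 bases of the annotated transcript, and over 75% of their unique windows lay after the stem-loop. The call of Hist3h2a, 1 of these 3, was lost in 7 of 16 alternatives. Among the 9 tested members with such a signal, 2 rose and 3 fell, while among the 15 tested coding members without it, 4 rose and 0 fell. Of all rows tested, 27.9% rose and 20.2% fell. Of the 7 tested members with more than 50% of their unique windows after the stem-loop, 1 rose, 3 fell and 3 did not pass the test. Of the 16 with at most 50%, 4 rose, 0 fell and 12 did not pass. Hist1h1d among the 7, and Hist1h2bj, Hist1h3a, Hist1h3e and Hist1h3g among the 16, passed the filter through 1 genotype alone. A member whose annotated transcript ends fewer than 50 bases past the stem-loop cannot have a 50-base window after it. Among the 4 that rose, this holds for Hist1h4h (46 bases past), Hist1h4c (29) and Hist4h4 (ends before the stem-loop). Their 0% is thus set by the annotated end, and the split partly follows the length of the annotation. The exception among the 7 was Hist1h2ac, which rose with 91.2% of its unique windows after the stem-loop. Hist2h4 and Hist1h1c had positive changes that did not pass (Hist2h4, named here after its values were seen, 0.57, limma adjusted p = 0.122). Both also carried the poly(A) signal, and Hist2h4 had 76.9% of its unique windows after the stem-loop. Hist2h4 thus shared both features of the members that fell. These groups were formed with the changes known and are given as counts, without a test.

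**Figure D5:**
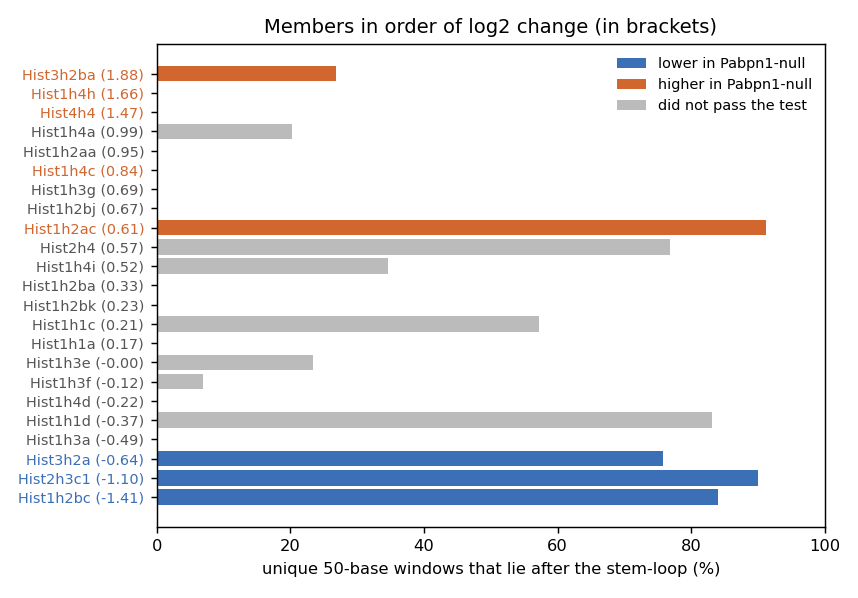
Share of each gene's unique 50-base windows that lie after the stem-loop, for the 23 tested histone genes with a stem-loop, in order of their log2 change (in brackets). The 3 genes that fell are at 75.7 to 89.9%, and of the 5 that rose, Hist1h2ac is at 91.2%, Hist3h2ba at 26.8% and the others at 0%. In these others the annotated transcript ends before the stem-loop or fewer than 50 bases after it, so no window could lie after it.

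Genes of histone pre-mRNA 3′ end processing were compared in the same test, from a list of 30 genes of which 29 were tested. The list is wider than the cleavage machinery and also holds factors such as Npat, Cdk9, Whsc2 and the cap-binding subunits. Of the 29 tested genes, 9 rose (31.0%) and 6 fell (20.7%), near the 27.9% and 20.2% of all rows tested (median log2 change 0.23). Zfp473, whose human counterpart ZFP100 bridges SLBP and the U7 snRNP, was at 15.1, 19.4 and 9.18 FPKM in WT samples and at 115, 103 and 105 FPKM in Pabpn1-null samples. All 3 Pabpn1-null samples were far above WT, a 7.43-fold rise (log2 change 2.87, standard error 0.23, limma adjusted p = 3.53e-05). Slbp, which binds the stem-loop, was far more abundant, at 2022, 1604 and 2050 FPKM in WT samples and at 1423, 1390 and 1478 FPKM in Pabpn1-null samples. Its mean fell to 75.6% of WT (log2 change -0.39, limma adjusted p = 0.0260), and the call was lost without WT replicate 1 (0.0905), WT replicate 3 (0.0732), Pabpn1-null replicate 1 (0.0927) or Pabpn1-null replicate 2 (0.0573), and at the same total FPKM (0.0953) or with quantile normalization (0.947).

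The U7 snRNP proteins Lsm10 and Lsm11 were lower by a similar margin. Lsm10 fell from 316 ± 32.6 to 239 ± 31.3 FPKM (log2 change -0.40, limma adjusted p = 0.0406) and Lsm11 from 5.10 ± 1.02 to 3.15 ± 0.459 FPKM (log2 change -0.55, limma adjusted p = 0.0480, all SD, n = 3). The call of Lsm10 was lost when any sample but WT replicate 2 was left out (adjusted p 0.0504 to 0.124), and that of Lsm11 when any but WT replicate 3 was (0.0777 to 0.141). At the same total FPKM neither passed (0.163 for Lsm10 and 0.153 for Lsm11), and Lsm11 did not pass with the replicate number as a block (0.0519). Casp8ap2, also called FLASH, which joins Lsm11 in the cleavage complex, did not pass the test (log2 change 0.23, limma adjusted p = 0.392, and -0.30 after the scaling below), nor did Npat, the activator of histone gene transcription (0.56, limma adjusted p = 0.0690). The cap-binding subunits moved apart, with Ncbp2 at a log2 change of -1.11 (limma adjusted p = 1.80e-04) and Ncbp1 at 0.96 (0.00302). Whsc2, a subunit of the negative elongation factor, rose by 1.03 (limma adjusted p = 3.12e-04).

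Of 23 tested genes of histone mRNA translation and decay, 5 rose (21.7%) and 10 fell (43.5%), with a median log2 change of -0.17. Lsm5, a subunit of the Lsm ring that binds mRNA 3′ ends during decay, fell to 40.9% of WT (log2 change -1.29, limma adjusted p = 1.57e-04), and Papd5, a non-canonical poly(A) polymerase, to 43.4% (-1.05, 0.00599). Exosc10, a nuclease of the nuclear exosome, rose 2.72-fold (1.38, 1.34e-04), and Pnpt1, the polynucleotide phosphorylase of mitochondria, rose 2.21-fold (1.00, 0.00158).

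The replacement and variant histones, whose mRNAs are mostly polyadenylated and made outside S phase, had a higher summed level than the members, most of it from H1foo, H3f3a, H3f3b and H2afz. Of 12 tested genes of this list, 2 rose (16.7%) and 5 fell (41.7%), with a median log2 change of -0.32. The list summed to 5872 to 7043 FPKM in WT samples and to 4880 to 5160 FPKM in Pabpn1-null samples. H1foo, the oocyte linker histone, was at 4564, 3806 and 4706 FPKM in WT and 3206, 3398 and 3532 FPKM in Pabpn1-null samples. Its groups did not overlap, and its level fell to 77.5% of WT (log2 change -0.36, limma adjusted p = 0.0292), a call lost without WT replicate 1 (0.0962), WT replicate 3 (0.0828) or Pabpn1-null replicate 1 (0.138) or at the same total FPKM (0.126) and turned to 0.02 by quantile normalization. H3f3a, a gene of the replacement histone H3.3, fell from 898 ± 107 to 444 ± 30.6 FPKM (log2 change -1.01, limma adjusted p = 2.47e-04), and Cenpa, the centromeric H3, fell to 57.7% of WT (-0.79, 0.00327). H2afx, which carries the stem-loop in the searched window, rose from 51.0 ± 10.3 to 103 ± 9.17 FPKM (1.02, limma adjusted p = 0.00115).

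Histone chaperones and nucleosome assembly factors showed 7 of 28 tested genes higher (25%) and 9 lower (32.1%), with a median log2 change of 0.09. Among those with a mean of at least 5 FPKM in a genotype, the 4 with the largest called changes were Set, an inhibitor of histone acetylation, at 36.6% of WT (log2 change -1.39, limma adjusted p = 2.10e-04), Hjurp, the chaperone of CENP-A, at 3.07-fold (1.33, 3.99e-04), Supt16h, a subunit of FACT, at 46.4% of WT (-1.05, 0.00176), and Daxx, a chaperone of H3.3, at 2.01-fold (0.91, 0.00963). Of 30 tested genes of S phase and proliferation, 14 rose (46.7%) and 6 fell (20%), with a median log2 change of 0.39. The E-type cyclins Ccne2 and Ccne1 rose 3.16-fold and 2.14-fold (1.59, 1.98e-04 and 1.04, 9.53e-04 in limma), the helicase subunit gene Mcm4 rose (1.14, 0.00107), and Tyms, which makes thymidylate, fell to 47.3% of WT (-1.06, 4.58e-04).

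All of these directions are relative to the deposited scale. On that scale more rows rose than fell, whereas the study, which counted transcripts by fold change, reported more decreased than increased ones. Multiplying each sample by a factor that relates the deposited columns to the group means in the study's supplement moved the median log2 change of all rows from 0.09 to -0.36 and that of the 25 members from 0.52 to 0.03. Under that scaling 3 members rose (Hist1h4h, Hist3h2ba and Hist4h4) and 4 fell (Hist1h1d, Hist1h2bc, Hist2h3c1 and Hist3h2a), and Hist1h4c (limma adjusted p = 0.259), Hist2h2bb (0.131) and Hist1h2ac (0.347) no longer passed. Of the other genes named here, Ncbp1, Whsc2, Pnpt1, H2afx, H2afj, Daxx, Mcm4, Ccne1, Dazl and Inha also lost their calls (adjusted p 0.0536 to 0.300). Of all 12523 rows tested, 1176 rose and 4445 fell under these factors, so lower calls outnumbered higher ones in general. The processing list then had 1 gene higher and 10 lower, the translation and decay list 1 and 12, the variant histones 0 and 7, the chaperones 2 and 12, and the S phase list 1 and 9. Within either scale Hist1h4h, Hist3h2ba and Hist4h4 were above, and Hist1h2bc and Hist2h3c1 below, the median change of all rows.

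Markers of other cells were checked beside these levels. All 15 oocyte markers were tested, and 9 rose (60%) and 2 fell (13.3%), against 27.9% and 20.2% of all rows tested. With the factors from the supplement, 3 rose and 5 fell, where 1176 and 4445 of all 12523 rows did so. The median log2 change of the 15 oocyte markers moved from 0.46 to -0.10. On the deposited scale the largest called changes were those of Padi6 (log2 change 1.55), Ddx4 (1.47), Nlrp5 (1.29) and Dazl (1.06), with limma adjusted p values of 2.88e-05, 6.29e-04, 0.00204 and 4.62e-04. The 15 granulosa cell markers summed to 36.0 to 41.6 FPKM in WT samples and to 33.7 to 48.3 FPKM in Pabpn1-null samples. Of these, 6 were not above 1 FPKM in any sample, among them Foxl2 (at most 0.319 FPKM) and Amh (at most 0.562 FPKM). Others were at levels like those of many histone members. Cyp19a1 was at 9.25 to 20.3 FPKM in WT and 3.41 to 6.10 FPKM in Pabpn1-null samples. Over the 6 samples Inha was at 3.11 to 18.8 FPKM, Nr5a2 at 5.59 to 10.7 FPKM and Fshr at 3.14 to 5.54 FPKM. Of the 9 tested granulosa markers 1 rose (Inha, log2 change 1.07, limma adjusted p = 0.0396, lost without WT replicate 2 at 0.145, WT replicate 3 at 0.0574, Pabpn1-null replicate 1 at 0.0919 or Pabpn1-null replicate 2 at 0.155) and 1 fell (Cyp19a1, -1.41, 0.00284). Theca and stromal markers summed to 1.72 to 2.98 FPKM, endothelial markers to 8.45 to 13.9 FPKM and blood markers to 1.22 to 3.90 FPKM over the 6 samples, with endothelial sums of 8.45 to 9.81 in WT and 10.0 to 13.9 in Pabpn1-null samples. The part of other cells in the histone levels was not tested.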

How the data were processed

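Growing oocytes of WT and Pabpn1-null mice were analysed, with 3 samples each, and groups were taken from the labels. The authors trimmed reads to 50 bases, aligned them with TopHat2 2.1.1 to mm9, and derived levels from reads with a single alignment, with UCSC gene models in Cufflinks 2.2.1. The deposited values are FPKM with 1 added, which was subtracted here. Whether they include the spike-in normalization that the methods describe is not stated. The supplement's group means were met by factors of 1.0, 1.4167 and 1.3077 for WT replicates 1, 2 and 3 and 0.8333 for each Pabpn1-null replicate, which were used only as an alternative.

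Rows above 1 FPKM in at least 1 sample were tested with limma 3.58.1 in R 4.3.3 (eBayes with trend on log2(FPKM + 1), which understates changes of low genes), with Benjamini-Hochberg adjustment and a threshold of 0.05. The test was checked on simulated data. Counts behind the FPKM are unknown, so no counting interval is given, and no source says that strand was used in counting, so values of overlapping genes and near-identical copies are uncertain. Sequences, positions and uniqueness came from the mm9 genome and GENCODE vM1, computed in Python 3.11.15 with pandas 2.3.3, with both strands of the genome searched for copies. UCSC models can differ from these.

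The members and lists were chosen with earlier results of these data known. Named members have a mean of at least 5 FPKM in a genotype, or lie between 1 and 5 FPKM with an adjusted p under 0.05 or as highest of their type or cluster. Of other lists, up to 4 members with the largest called change and a mean of at least 5 FPKM in a genotype were named, besides Slbp, Lsm10, Lsm11, Zfp473, Casp8ap2, Npat, H1foo and Pabpn1. Alternatives were other filters (none, or a mean of 5 FPKM or more), another pseudocount (0.1), 4 scalings, leaving out each sample, a replicate block and 2 forms of eBayes.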

Additional observations from a re-analysis of the deposited data

How the results depend on the processing

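Across 16 alternatives, the calls of Hist1h4h, Hist1h2bc, Hist4h4, Hist2h3c1 and Hist3h2ba were kept wherever the gene was tested. The number of members that rose was 3 instead of 6 with a mean of at least 5 FPKM, where 8 members were tested, and 3 with the factors from the supplement. Leaving out each sample in turn gave 5 to 8 members that rose and 2 to 3 that fell, 24 to 25 members above 1 FPKM, and a summed level of 61.4 to 84.7% of WT. Above 0.1 FPKM there were 40 members and above 5 FPKM 13, instead of 25 above 1 FPKM. The summed level was 182% of WT without Hist1h2bc. Of the genes named with values, the direction turned for Hist1h1c (-0.27), Hist1h2ba (-0.0497) and Casp8ap2 (-0.30) with the factors, and for H1foo (0.0234) with quantile normalization. Another 5 tested members, none of them called, also turned in at least 1 alternative. Without the filter, 4 of the 9 member calls were lost, Hist1h4c (adjusted p = 0.0524 in limma), Hist1h2ac (0.0658), Hist2h2bb (0.0867) and Hist3h2a (0.116), as were those of Slbp (0.126), Lsm10 (0.118), Lsm11 (0.102), H1foo (0.289), Papd5 (0.0635), Daxx (0.0778), Nlrp5 (0.0542), Cyp19a1 (0.0511) and Inha (0.233). Without the trend, Slbp (0.0728), Lsm10 (0.0823) and H1foo (0.0873) were lost, and with quantile normalization Hist1h2ac (0.0699), Lsm10 (0.225) and Inha (0.0859). The cause was not tested. Same-numbered samples of the genotypes deviated together little (r of -0.01, -0.01 and 0.06 across genes), so the numbers were not taken as pairs. With the replicate block 9 members rose and 3 fell, and the block kept all 9 calls of members that the fit without it made, while Lsm11 was lost (0.0519).

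Over all rows, the count of rises and falls was 3491 and 2535 as reported, 1176 and 4445 with the factors, 4327 and 1778 at the same total FPKM, and 2977 and 2988 with median-of-ratios scaling. Counts without the filter were 2681 and 1750. The number of reads behind a low FPKM is unknown, so members near 1 FPKM are the least certain.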
